A study of Homo sapiens with 6 samples.

Results

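The transcripts described here are those of the mitochondrial genome, which are 37 of the 58735 genes in the FPKM table. They were chosen as all rows placed on chromosome MT, whose symbols start with MT-, and this rule uses no expression value. RNA-seq was performed on the human lung cancer line PC9-BrM3, which was derived from PC9 cells by repeated injection into mice and recovery from brain metastases. One group of 3 libraries carried an shRNA against AKR1B10 (BrM3-shAKR1B10, labelled AKR1B10 knockdown, vector 1) and the other group of 3 libraries carried a negative control shRNA (BrM3-shNC). Both groups share the cell line, the LV2 lentiviral vector type and routine culture in RPMI1640 with serum and antibiotics, with no drug. The comparison addresses how silencing AKR1B10, an aldo-keto reductase, alters expression in these cells. One line and 1 shRNA are the limits of the model, and the labels do not say whether the 3 libraries of a group came from separate cultures, so p-values measure only the spread between libraries. Fewer mitochondrial genomes per cell and less RNA per genome cannot be told apart in these bulk libraries.

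The human mitochondrial genome is a small circle that encodes subunits of respiratory complexes I, III and IV and of ATP synthase, the RNAs of both subunits of the mitochondrial ribosome, and a set of tRNAs. Each strand is transcribed into long precursors from which most mRNAs and rRNAs are released by cutting out the tRNAs that lie between them, as described by the tRNA punctuation model. RNase P, of which TRMT10C is a part, cuts at the 5′ end of a tRNA and ELAC2 cuts at the 3′ end, and the mRNAs then receive short poly(A) tails that in some of them complete the stop codon.

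Of the 37 genes, 13 are coding, 2 are ribosomal and 22 are tRNA genes. The plus strand of the annotation holds 28 genes, which are 12 coding, both ribosomal and 14 tRNA genes. The minus strand holds 9 genes, which are MT-ND6 and 8 tRNA genes. Gene positions in the table matched GENCODE 29 (GRCh38) for all 37 genes. The labels describe selection of library fragments of 370 to 420 bp. The tRNA genes are 59 to 75 bases long, so a read on a tRNA gene in these libraries came from a fragment that may extend over neighboring genes, and a tRNA level is a measure of reads that cover the gene, not of mature tRNA. Whether counting used the strand is not given in the sources used here, so reads from a gene and from RNA of the opposite strand cannot be told apart.

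The sequences of 7 tRNA genes are shown from GENCODE 29 (GRCh38) because the tRNA results turn on them. Each is written 5′ to 3′ on the strand of the gene, with the anticodon in capitals. MT-TN, MT-TC, MT-TY and MT-TP, the tRNAs for asparagine, cysteine, tyrosine and proline, lie on the minus strand at chrM:5657-5729, chrM:5761-5826, chrM:5826-5891 and chrM:15956-16023. MT-TV, MT-TH and MT-TL2, the tRNAs for valine, histidine and the leucine CUN codons, lie on the plus strand at chrM:1602-1670, chrM:12138-12206 and chrM:12266-12336.
MT-TN: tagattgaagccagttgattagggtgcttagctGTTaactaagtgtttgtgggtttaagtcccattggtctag
MT-TC: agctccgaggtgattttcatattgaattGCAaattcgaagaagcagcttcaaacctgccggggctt
MT-TY: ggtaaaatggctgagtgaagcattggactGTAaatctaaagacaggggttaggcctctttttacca
MT-TP: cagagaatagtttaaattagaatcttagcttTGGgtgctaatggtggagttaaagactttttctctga
MT-TV: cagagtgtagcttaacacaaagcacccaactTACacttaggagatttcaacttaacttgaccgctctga
MT-TH: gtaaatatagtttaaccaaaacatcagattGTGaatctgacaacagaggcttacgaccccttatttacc
MT-TL2: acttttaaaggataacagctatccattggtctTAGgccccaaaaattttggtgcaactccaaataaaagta

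The packing of the genome is visible at the ends of the coding genes. Of the 13 coding genes, 6 have a length that is not a multiple of 3 and end in T or TA, the start of a stop codon, with 0 bases between them and the tRNA gene that follows. The last 30 bases of MT-ND1 (chrM:4233-4262), MT-ND2 (chrM:5482-5511) and MT-CYB (chrM:15858-15887) are shown with the incomplete stop in capitals, beside MT-ATP6 (chrM:9178-9207), which has a complete one, and MT-ND6 (chrM:14149-14178, minus strand), whose last codon is AGG.
MT-ND1: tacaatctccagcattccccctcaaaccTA
MT-ND2: ctatctccccttttatactaataatcttaT
MT-CYB: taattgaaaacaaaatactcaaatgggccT
MT-ATP6: gtaagcctctacctgcacgacaacacaTAA
MT-ND6: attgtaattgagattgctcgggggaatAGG

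MT-ATP8 and MT-ATP6, both subunits of ATP synthase, share 46 bases, and MT-ND4L and MT-ND4, both subunits of complex I, share 7 bases. How reads on shared bases were counted is not given in the sources used here, so the values of these 4 genes are uncertain to that extent. The end of MT-ATP8 (chrM:8507-8572, plus strand) is shown with the bases that also belong to MT-ATP6 in capitals.
MT-ATP8: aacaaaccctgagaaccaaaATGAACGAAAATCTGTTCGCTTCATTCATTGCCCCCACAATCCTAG
The strands also differ in base content. The 12 plus-strand coding genes hold 6.28% to 16.2% G and 29.5% to 36.0% C, and MT-ND6 on the minus strand holds 35.6% G and 7.05% C.

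AKR1B10 itself was measured at 108, 107 and 110 FPKM (fragments per kilobase of gene and per unit of library size) in BrM3-shAKR1B10 libraries 1, 2 and 3 and at 799, 775 and 772 FPKM in BrM3-shNC libraries 1, 2 and 3, so the labels fit the targeted gene. The libraries held 16964504 to 18709028 reads on genes. All 6 epithelial markers were present at mean levels of 49.2 to 935 FPKM, while the 5 lung markers (NKX2-1, NAPSA, SFTPB, SFTPC and SFTPA1) all had means under 1 FPKM, the highest at 0.483 FPKM, so the labelled lung origin was not visible in them. The 3 leukocyte and 2 endothelial markers were under 1 FPKM. Of 3 fibroblast markers, COL1A2 was at 0 in all libraries, PDGFRB was under 1 FPKM, and COL1A1 stood at 1.15, 1.17 and 1.33 FPKM in BrM3-shAKR1B10 and at 1.98, 2.02 and 1.96 FPKM in BrM3-shNC, with no overlap and a log2 fold change of −0.67 (limma, Benjamini-Hochberg adjusted p = 0.00319). Its part in the results was not tested. BrM3-shNC library 1 differed from the other libraries of its group by a chi-square per gene of 4.90 and 5.45, against 2.46 to 2.71 for the other 4 pairs within groups.

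By mean FPKM the 13 coding genes, both ribosomal genes, MT-TN, MT-TC, MT-TP and MT-TY held ranks between 1 and 72 of the 58735 rows, and the other 18 tRNA genes ranks between 369 and 14623. All mitochondrial genes together took 6.88%, 7.25% and 7.18% of reads on genes in BrM3-shAKR1B10 and 7.73%, 6.59% and 6.95% in BrM3-shNC. The groups overlapped, and the means of 7.10% ± 0.196 (SD, n = 3) and 7.09% ± 0.581 (SD, n = 3) did not differ beyond this spread (exact permutation test, two-sided p = 1.0). MT-CO1 alone, the catalytic subunit of complex IV, held 32.6% to 34.6% of the mitochondrial reads.

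The share of reads divided differently among the classes. Coding genes took 5.98%, 6.31% and 6.29% of reads in BrM3-shAKR1B10 and 7.11%, 6.06% and 6.45% in BrM3-shNC, and the groups overlapped (exact permutation test, two-sided p = 0.4). Ribosomal genes took 0.833%, 0.875% and 0.837% in BrM3-shAKR1B10 and 0.571%, 0.486% and 0.466% in BrM3-shNC, and tRNA genes took 0.0627%, 0.0588% and 0.0615% against 0.0459%, 0.0406% and 0.0316%. For both of these classes every BrM3-shAKR1B10 library was above every BrM3-shNC library (exact permutation test, two-sided p = 0.1 for each). With 3 against 3 libraries the exact permutation test cannot go below 0.1, so no share or ratio given here can pass 0.05, and p = 0.1 became 0.15 after Benjamini-Hochberg adjustment over the 15 shares and ratios computed.

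Differences per gene were tested with limma on the log2(FPKM + 0.1) scale, and p-values were adjusted by Benjamini-Hochberg over the 13150 genes whose mean reached 1 FPKM. Calls required an adjusted p under 0.05 together with an absolute log2 fold change above 0.5. By this rule 36 of the 37 mitochondrial genes were tested, and MT-TF, the tRNA for phenylalanine, was not, with 0, 0 and 1 reads in BrM3-shAKR1B10 and 0, 0 and 4 reads in BrM3-shNC. The large ribosomal RNA gene MT-RNR2 and the tRNA genes MT-TN, MT-TP and MT-TV were called higher in BrM3-shAKR1B10, and the tRNA genes MT-TL2 and MT-TH were called lower. No coding gene was called, where 6 had an unadjusted p under 0.05 (limma), all of them lower (46.2%, against 27.3% of all genes tested), and limma's voom on recovered reads called none either. The 4 genes called higher are 11.1% of the 36 tested, where 5.83% of all genes tested were called higher, and the 2 called lower are 5.56%, where 7.45% of all genes tested were called lower. The groups did not overlap for 12 of the 36 genes (33.3%), against 54.7% of all genes tested.

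MT-RNR2, the RNA of the large subunit of the mitochondrial ribosome, gave the firmest result. It was measured at 4848, 5115 and 4894 FPKM in BrM3-shAKR1B10 and at 3392, 2838 and 2740 FPKM in BrM3-shNC. All 3 knockdown libraries were above all control libraries, and the lowest of the former exceeded the highest of the latter by more than the range within either group. The mean rose to 166% of the control mean, with a log2 fold change of 0.73 ± 0.085 (SE, n = 3 per group, limma, Benjamini-Hochberg adjusted p = 0.000809). The call held without any single library, with log2 fold changes of 0.67 to 0.83.

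MT-RNR1, the RNA of the small subunit, was measured at 605, 614 and 615 FPKM in BrM3-shAKR1B10 and at 562, 478 and 468 FPKM in BrM3-shNC. The groups did not overlap, but the log2 fold change of 0.29 ± 0.070 (SE, n = 3 per group, limma, Benjamini-Hochberg adjusted p = 0.0173) stayed under the size threshold. The adjusted p was 0.0529 to 0.0556 without BrM3-shAKR1B10 library 2, BrM3-shAKR1B10 library 3 or BrM3-shNC library 2, and 0.0611 with no filter on low values (limma, Benjamini-Hochberg). MT-RNR1 and MT-RNR2 are neighbors on one precursor with only MT-TV between them. Within a library, the log2 ratio of MT-RNR2 to MT-RNR1 was 3.003, 3.06 and 2.99 in BrM3-shAKR1B10 and 2.59, 2.57 and 2.55 in BrM3-shNC. This ratio, chosen after the values were seen, was 1.36-fold higher in BrM3-shAKR1B10 with no overlap (exact permutation test, two-sided p = 0.1, the smallest possible). In the order of per-length levels of the 15 coding and ribosomal genes, MT-RNR2 was at place 6 in BrM3-shAKR1B10 and at place 9 in BrM3-shNC, but its libraries overlapped those of its neighbors MT-ATP6 and MT-ND4L in the former and of MT-ND1 in the latter, so these places are not resolved.

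Set against the coding genes of the same library, the ribosomal genes had a log2 ratio of summed FPKM of −3.45, −3.43 and −3.51 in BrM3-shAKR1B10 and of −4.21, −4.21 and −4.34 in BrM3-shNC. The difference of 0.79, or 1.73-fold, is independent of the scaling between libraries, and the groups did not overlap (exact permutation test, two-sided p = 0.1). The libraries were made from mRNA purified with poly-T beads, so the ribosomal values count only the rRNA that came through this step. Whether the yield of that step differed between the groups was not tested.

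**Figure D1:**
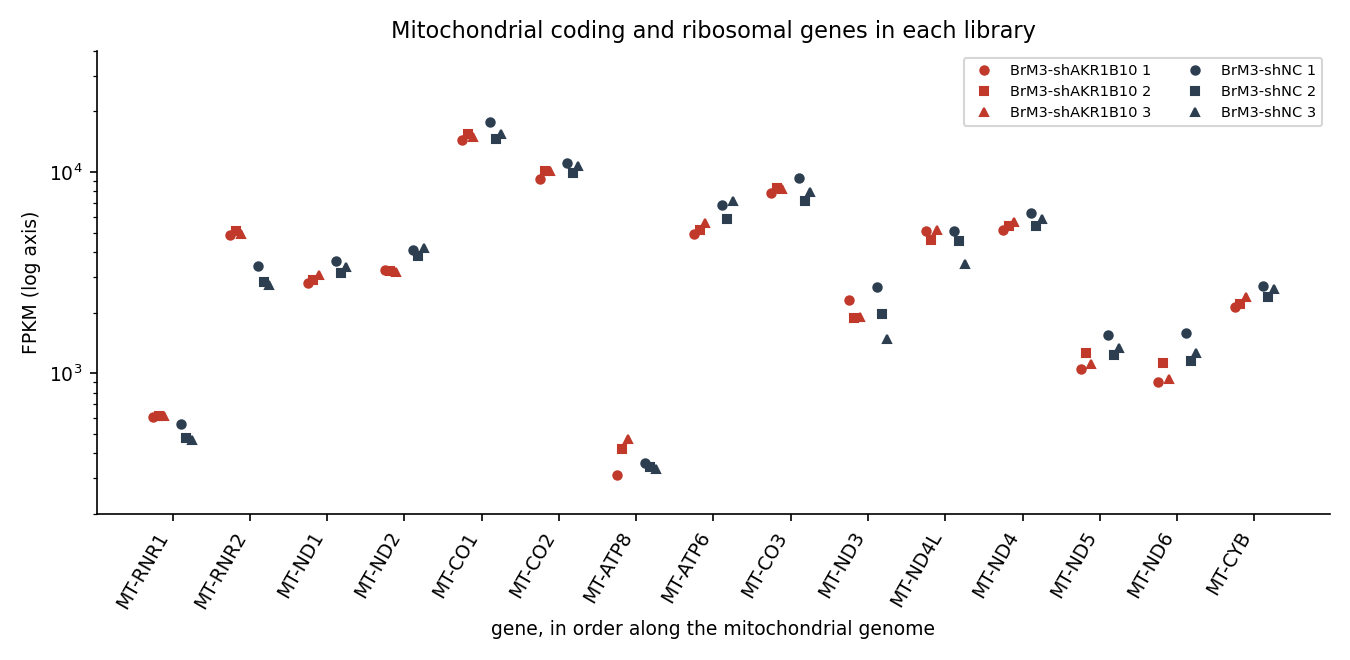
FPKM (y axis, log scale) of the 13 coding and 2 ribosomal genes of the mitochondrial genome in the order of the genome (x axis), 1 symbol per library, with BrM3-shAKR1B10 in red and BrM3-shNC in dark blue and the symbol shape giving the library number. MT-RNR2 separates at 4848 to 5115 FPKM against 2740 to 3392 FPKM, and BrM3-shNC library 1 is the highest library for 9 of the 13 coding genes.

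Among the coding genes, complex IV transcripts were the most abundant per length. MT-CO1 was measured at 14432, 15440 and 14921 FPKM in BrM3-shAKR1B10 and at 17693, 14517 and 15363 FPKM in BrM3-shNC, with overlapping groups. MT-CO2, the subunit that receives electrons from cytochrome c, stood at 9191, 10075 and 10073 FPKM against 11122, 9883 and 10739 FPKM, and MT-CO3 at 7894, 8312 and 8181 FPKM against 9381, 7187 and 7924 FPKM. Both overlapped between groups. Their log2 fold changes were −0.08 for MT-CO1, −0.11 for MT-CO2 and 0.00 for MT-CO3, with adjusted p of 0.473, 0.229 and 0.987 (limma, Benjamini-Hochberg). In each group the order MT-CO1, MT-CO2, MT-CO3 held with no overlap between neighbors in it.

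Of the 7 complex I genes, MT-ND2 had the smallest adjusted p, which was also the smallest of the 13 coding genes. It was measured at 3256, 3209 and 3193 FPKM in BrM3-shAKR1B10 and at 4095, 3839 and 4186 FPKM in BrM3-shNC. The groups were well separated, and the log2 fold change was −0.33 ± 0.047 (SE, n = 3 per group, limma, Benjamini-Hochberg adjusted p = 0.00209), which is under the size threshold. It was the 1 coding gene with an adjusted p under 0.05 without any single library.

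MT-ND1 stood at 2811, 2920 and 3076 FPKM in BrM3-shAKR1B10 and at 3605, 3157 and 3385 FPKM in BrM3-shNC, with no overlap and a log2 fold change of −0.20 (limma, Benjamini-Hochberg adjusted p = 0.0397). MT-ND4 stood at 5142, 5368 and 5654 FPKM against 6250, 5365 and 5823 FPKM, and MT-ND5 at 1049, 1267 and 1111 FPKM against 1541, 1225 and 1330 FPKM. For both the groups overlapped and the adjusted p was 0.262 and 0.0878 (limma, Benjamini-Hochberg). MT-ND3 and MT-ND4L are shorter than the selected fragments. MT-ND3 stood at 2321, 1870 and 1904 FPKM against 2666, 1964 and 1479 FPKM, and MT-ND4L at 5076, 4571 and 5152 FPKM against 5065, 4521 and 3481 FPKM. Both overlapped, with BrM3-shNC library 3 the lowest library for each, and their adjusted p was 0.916 and 0.292 (limma, Benjamini-Hochberg).

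MT-ND6 is the 1 coding gene of the minus strand and so comes from a different precursor than the other coding genes. It was measured at 906, 1128 and 931 FPKM in BrM3-shAKR1B10 and at 1579, 1147 and 1257 FPKM in BrM3-shNC. Library 2 of each group nearly met, at 1128 and 1147 FPKM, and the other libraries were farther apart. Its log2 fold change of −0.42 ± 0.14 (SE, n = 3 per group, limma, Benjamini-Hochberg adjusted p = 0.0449) was the most negative of the coding genes but was not called. Without BrM3-shAKR1B10 library 2 it was −0.52 (limma, Benjamini-Hochberg adjusted p = 0.0341), and without BrM3-shNC library 2 it was called too (limma, Benjamini-Hochberg adjusted p = 0.0313). Without any one of the other 4 libraries the adjusted p was 0.0763 to 0.13 (limma, Benjamini-Hochberg), with log2 fold changes from −0.45 to −0.29, the latter without BrM3-shNC library 1. The adjusted p was 0.0656 with TPM scaling and 0.0657 with scaling by nuclear reads (limma, Benjamini-Hochberg). The log2 ratio of MT-ND6 to the summed plus-strand coding genes was −6.01, −5.75 and −6.05 in BrM3-shAKR1B10 and −5.50, −5.71 and −5.67 in BrM3-shNC, a difference of −0.31 with no overlap (exact permutation test, two-sided p = 0.1).

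MT-CYB, the complex III subunit cytochrome b, was measured at 2138, 2214 and 2382 FPKM in BrM3-shAKR1B10 and at 2717, 2383 and 2611 FPKM in BrM3-shNC, with the groups nearly touching at 2382 and 2383 FPKM and an adjusted p of 0.0522 (limma, Benjamini-Hochberg). MT-ATP6, the subunit that forms the proton path of ATP synthase, stood at 4918, 5138 and 5576 FPKM against 6864, 5834 and 7139 FPKM. Its groups did not overlap, and the log2 fold change was −0.34 ± 0.090 (SE, n = 3 per group, limma, Benjamini-Hochberg adjusted p = 0.0227). MT-ATP8, which lies upstream on the same mRNA and shares 46 bases with it, stood at 313, 420 and 472 FPKM against 357, 341 and 333 FPKM, with BrM3-shAKR1B10 library 1 below all others.

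Ratios within the pairs of genes carried on one mRNA also separated by group. The log2 ratio of MT-ATP8 to MT-ATP6 was −3.97, −3.61 and −3.56 in BrM3-shAKR1B10 and −4.27, −4.10 and −4.42 in BrM3-shNC. That of MT-ND4L to MT-ND4 was −0.02, −0.23 and −0.13 in BrM3-shAKR1B10 and −0.30, −0.25 and −0.74 in BrM3-shNC. Both ratios, chosen after the values were seen, were higher in all 3 BrM3-shAKR1B10 libraries, by 1.46-fold and 1.23-fold (exact permutation test, two-sided p = 0.1 each). In both pairs the first gene is the short one, with 207 and 297 bases. The 74 nuclear genes of 200 to 400 bases with enough reads also deviated by library, with median log2 deviations of 0.22, 0.06 and 0.09 in BrM3-shAKR1B10 and −0.07, 0.04 and −0.17 in BrM3-shNC. The part of this length pattern in the values of MT-ATP8, MT-ND4L and MT-ND3 was not tested.

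In all, 9 of the 13 coding genes had a negative log2 fold change, also with TPM scaling and with scaling by nuclear reads. The median was −0.11, beside −0.01 for all genes tested. The adjusted p was under 0.05 for MT-ND1, MT-ND2, MT-ATP6 and MT-ND6, which were all lower (30.8%, against 23.1% of all genes tested that were lower and 42.5% in either direction), and none of these passed the size threshold. The count of lower coding genes at an adjusted p under 0.05 depended on single libraries. It was 1 without BrM3-shNC library 1 and 1 without BrM3-shNC library 3 (MT-ND2 in both), 5 without BrM3-shNC library 2 (MT-CYB added), 2 without BrM3-shAKR1B10 library 2 (MT-ND2 and MT-ND6) and 2 without BrM3-shAKR1B10 library 3 (MT-ND2 and MT-ATP6). Without BrM3-shAKR1B10 library 1, MT-ND2 was the 1 lower gene left, and MT-ATP8 was higher at 0.37 (limma, Benjamini-Hochberg adjusted p = 0.00883). It also depended on the method, with 0 genes when low values were not filtered (MT-ND2 had an adjusted p of 0.14 by limma and Benjamini-Hochberg), 2 by eBayes without trend (MT-ND2 and MT-ATP6), 5 at a mean FPKM of at least 5 (MT-CYB added), 1 gene by TPM scaling (MT-ND2), 2 by scaling by nuclear reads (MT-ND2 and MT-ATP6) and 7 by voom on recovered reads, which added MT-CO2, MT-CYB and MT-ND5. With quantile normalization 7 of the coding genes were negative. MT-CO1, MT-CO2 and MT-CO3 held the top ranks in every library, so this scaling fixed their log2 fold change at 0. MT-ND4 turned positive and MT-ND3 negative. By this scaling 6 genes had an adjusted p under 0.05, 5 of them lower, with MT-CYB added, and MT-ND4 higher. The mean FPKM of MT-ND4 was lower in BrM3-shAKR1B10 than in BrM3-shNC, at 5388 against 5813 FPKM. The groups overlapped in the balance of complexes. The log2 ratio of complex I to complex IV coding genes, also chosen after the values were seen, was −0.67 ± 0.060 (SD, n = 3) in BrM3-shAKR1B10 and −0.63 ± 0.064 (SD, n = 3) in BrM3-shNC (exact permutation test, two-sided p = 0.5).

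Reads on the tRNA genes were concentrated on 4 minus-strand genes. MT-TN, MT-TP, MT-TC and MT-TY, whose sequences are printed above, held 92.5% to 95.6% of the tRNA reads of a library, with 369 to 4422 reads per gene and library. The other 18 tRNA genes had 0 to 157 reads, and 6 of them had a mean under 10. A count of 3 reads, taken as the least the depth can show, is 2.34 to 2.53 FPKM for a gene of 70 bases, and this limit covers counting error only.

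MT-TN had 4422, 3198 and 3549 reads in BrM3-shAKR1B10 and 2441, 2006 and 1225 reads in BrM3-shNC. All knockdown libraries were above all control libraries, and BrM3-shNC library 3 was the lowest. On the FPKM scale the mean rose to 197% of the control mean, with a log2 fold change of 1.02 ± 0.26 (SE, n = 3 per group, limma, Benjamini-Hochberg adjusted p = 0.0210). The call was lost without BrM3-shAKR1B10 library 1 (limma, Benjamini-Hochberg adjusted p = 0.0681) and without BrM3-shAKR1B10 library 3 (limma, Benjamini-Hochberg adjusted p = 0.0547), where the log2 fold change was 0.89 and 1.05.

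MT-TC lies 31 bases from MT-TN, the widest gap between neighboring tRNA genes in this cluster. It had 2997, 2785 and 2937 reads against 2591, 2135 and 1781 reads, with no overlap and a log2 fold change of 0.44 ± 0.13 (SE, n = 3 per group, limma, Benjamini-Hochberg adjusted p = 0.0346), which is under the size threshold. It was 0.14 with quantile normalization (limma, Benjamini-Hochberg adjusted p = 0.218), was called without BrM3-shNC library 1, at 0.55 (limma, Benjamini-Hochberg adjusted p = 0.0129), and was 0.29 without BrM3-shNC library 3. Without any one of the other 4 libraries the adjusted p was 0.0618 to 0.0981 (limma, Benjamini-Hochberg). MT-TY, which shares its end base with MT-TC, had 498, 422 and 429 reads against 436, 382 and 369 reads, with overlapping groups on the FPKM scale and an adjusted p of 0.135 (limma, Benjamini-Hochberg).

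MT-TP lies apart from this cluster, next to the noncoding control region, with no gene annotated after it. It had 2394, 3478 and 3310 reads in BrM3-shAKR1B10 and 2529, 1888 and 2029 reads in BrM3-shNC. BrM3-shAKR1B10 library 1 was below BrM3-shNC library 1, so the groups overlapped. The log2 fold change of 0.50 ± 0.15 (SE, n = 3 per group, limma, Benjamini-Hochberg adjusted p = 0.0365) just passed the size threshold, and the call held in 2 of the 6 fits with 1 library left out, those without BrM3-shAKR1B10 library 1 and without BrM3-shNC library 1. In the other 4 the log2 fold change was 0.41 to 0.45.

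The called plus-strand tRNA genes rested on far fewer reads. MT-TH had 91, 89 and 71 reads in BrM3-shAKR1B10 and 157, 132 and 100 reads in BrM3-shNC, and MT-TL2 had 12, 14 and 10 reads against 16, 24 and 27 reads. Both groups of values were separate for each gene, with log2 fold changes of −0.62 ± 0.18 and −0.87 ± 0.22 (SE, n = 3 per group, limma, Benjamini-Hochberg adjusted p = 0.0305 and 0.0184). These genes lie in one run with MT-TS2 between MT-ND4 and MT-ND5, and MT-TS2, with 26, 21 and 11 reads against 26, 19 and 16 reads, did not pass the test (limma, Benjamini-Hochberg adjusted p = 0.776). The call of MT-TH held in 1 of 6 fits with a library left out, that without BrM3-shNC library 3, and that of MT-TL2 in 2 of 6, those without BrM3-shAKR1B10 library 2 and without BrM3-shNC library 1.

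MT-TV, between the ribosomal genes, had 14, 11 and 9 reads in BrM3-shAKR1B10 and 9, 4 and 6 reads in BrM3-shNC. The groups touched at 9 reads and were separate only after scaling to library size, at 7.36 and 7.11 FPKM, and the log2 fold change was 0.88 ± 0.27 (SE, n = 3 per group, limma, Benjamini-Hochberg adjusted p = 0.0403). Its call held in 2 of 6 fits with a library left out, those without BrM3-shAKR1B10 library 3 and without BrM3-shNC library 1. Its mean of 8.83 reads is under the 10 set for naming a tRNA gene, and it is named because it was called. With no filter on low values none of MT-TN, MT-TP, MT-TV and MT-TH was called (limma, Benjamini-Hochberg adjusted p of 0.063 to 0.124), MT-TV and MT-TL2 were not called by voom on recovered reads, MT-TV and MT-TP not by eBayes without trend, and MT-TP not with quantile normalization, at 0.30.

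The other tested tRNA genes with a mean of at least 10 reads were not called by the rule given above. MT-TT, for threonine, had 33, 50 and 42 reads against 39, 18 and 16 reads, and MT-TD, for aspartate, had 43, 31 and 34 reads against 33, 23 and 11 reads. Their log2 fold changes of 0.87 and 0.81 had adjusted p of 0.0719 and 0.134 (limma, Benjamini-Hochberg), and the groups overlapped for both. MT-TT was called higher by voom on recovered reads (adjusted p = 0.0345, Benjamini-Hochberg), at a mean FPKM of at least 5 (limma, Benjamini-Hochberg adjusted p = 0.0478) and without BrM3-shNC library 1, at 1.25 (limma, Benjamini-Hochberg adjusted p = 0.00374). MT-TD was called without BrM3-shNC library 1, at 1.14 (limma, Benjamini-Hochberg adjusted p = 0.0481), and was 0.35 without BrM3-shNC library 3. MT-TL1, which follows MT-RNR2 and carries leucine for the UUR codons, had 132, 94 and 91 reads against 112, 88 and 81 reads and an adjusted p of 0.475 (limma, Benjamini-Hochberg). MT-TG, for glycine, had 32, 59 and 65 reads against 83, 64 and 55 reads, and MT-TR, for arginine, had 31, 54 and 45 reads against 48, 33 and 40 reads. MT-TI, for isoleucine, had 19, 17 and 23 reads against 21, 28 and 26 reads, and MT-TM, for methionine, had 14, 13 and 14 reads against 12, 18 and 4 reads. For these 4 genes the groups overlapped and the adjusted p was 0.129 to 0.767 (limma, Benjamini-Hochberg). On the minus strand, MT-TE, for glutamate, had 21, 16 and 20 reads against 18, 11 and 19 reads, and MT-TS1, for the serine UCN codons, had 14, 14 and 20 reads against 9, 9 and 16 reads. Both overlapped, with adjusted p of 0.293 and 0.127 (limma, Benjamini-Hochberg), and MT-TS1 was called higher without BrM3-shNC library 3, at 0.78 (limma, Benjamini-Hochberg adjusted p = 0.0182). Of the genes under 10 reads, MT-TA had 3, 4 and 2 reads against 0, 2 and 0 reads and passed the filter on low values only through the knockdown libraries, so no fold is given for it. MT-TK had 0 to 14 reads, and MT-TQ and MT-TW had 2 to 10 reads. MT-TQ was called higher without BrM3-shAKR1B10 library 3 (limma, Benjamini-Hochberg adjusted p = 0.0185).

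By strand, the tRNA genes with a mean of at least 10 reads are 6 on the minus strand and 10 on the plus strand. The log2 fold change was above 0 for 6 of the 6 minus-strand genes (MT-TN, MT-TC, MT-TY, MT-TS1, MT-TE and MT-TP) and for 5 of the 10 plus-strand genes, and these counts were also obtained with TPM scaling, scaling by nuclear reads and quantile normalization. They are given as a description, since MT-TC, MT-TY, MT-TS1 and MT-TE were not called. Summed over genes, minus-strand tRNA genes had 10359, 9926 and 10272 reads in BrM3-shAKR1B10 and 8029, 6439 and 5443 reads in BrM3-shNC. Plus-strand tRNA genes had 463, 462 and 420 reads against 561, 456 and 397 reads. The log2 ratio of the minus-strand to the plus-strand sum of FPKM was 4.48, 4.42 and 4.61 in BrM3-shAKR1B10 and 3.84, 3.83 and 3.79 in BrM3-shNC, a 1.61-fold difference with no overlap (exact permutation test, two-sided p = 0.1).

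On the minus strand, the ratio of the summed tRNA genes to the coding gene MT-ND6 separated by group. MT-ND6 was not called, and of these tRNA genes only MT-TN and MT-TP were. Most of the tRNA sum comes from MT-TN, MT-TC and MT-TP. Minus-strand tRNA genes set against MT-ND6 had log2 ratios of 3.22, 2.82 and 3.17 in BrM3-shAKR1B10 and of 2.01, 2.27 and 1.80 in BrM3-shNC. This difference of 1.04, or 2.06-fold, had no overlap (exact permutation test, two-sided p = 0.1), and both strand ratios were chosen after the values were seen. All tRNA genes against all coding genes gave −2.75, −2.89 and −2.84 against −3.42, −3.37 and −3.80, a difference of 0.70 or 1.63-fold. Of the 15 shares and ratios, 10 had no overlap between groups, where 54.7% of all genes tested had none. These 10 include every ratio chosen after the values were seen except complex I to complex IV, and several of them share genes. The count is therefore a description only. The 28 nuclear genes of up to 100 bases had median log2 deviations of −0.07, 0.12 and 0.15 in BrM3-shAKR1B10 and 0.11, 0.05 and −0.03 in BrM3-shNC, and their part in the tRNA values was not tested.

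Nuclear copies of mitochondrial genes can take up such reads. Of 407 rows that are copies by their symbols, 4 had a mean of at least 1 FPKM, all in one stretch of chromosome 1. MTATP6P1 (chr1:633696-634376) had a mean of 329 FPKM and its reads were 3.31% to 8.49% of those on MT-ATP6, with 671 of 681 bases identical. MTND2P28 (chr1:629640-630683) had a mean of 223 FPKM and 4.33% to 8.18% of the reads on MT-ND2, with 1025 of 1042 aligned bases identical. MTCO1P12 had a mean of 29.6 FPKM, at most 0.260% of MT-CO1, and MTCO3P12 a mean of 1.11 FPKM. None of the 4 was called (limma, Benjamini-Hochberg adjusted p of 0.225 to 0.441), and adding their reads to the mitochondrial genes, an alternative chosen after seeing the data, changed no call.

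The nuclear genes that express and maintain the mitochondrial genome were compared as lists, which were drawn up with earlier results of these data known. Of 180 symbols in 10 lists, 177 were found and 165 were tested. In BrM3-shAKR1B10, 3 of them were called lower (1.82%, against 7.45% of all genes tested) and 0 higher (against 5.83%). At an adjusted p under 0.05 alone, with no size threshold, 24 were lower (14.5%, against 23.1% of all genes tested) and 16 higher (9.7%, against 19.4%; limma, Benjamini-Hochberg). At an unadjusted p under 0.05, 32 were lower (19.4%, against 27.3%) and 26 higher (15.8%, against 23.8%), and voom on recovered reads called 3 lower and 0 higher. The median log2 fold change over the lists was −0.02.

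TFAM, which packages mitochondrial DNA and starts its transcription, was the one called member of the 12 transcription genes. It was measured at 15.7, 15.3 and 14.1 FPKM in BrM3-shAKR1B10 and at 23.3, 22.8 and 22.1 FPKM in BrM3-shNC. The groups were far apart, and TFAM fell by 0.59 ± 0.049 on the log2 scale (SE, n = 3 per group, limma, Benjamini-Hochberg adjusted p = 0.000205). The RNA polymerase POLRMT, its partner TFB2M and the elongation factor TEFM were not called, with log2 fold changes of 0.14, −0.02 and −0.03 and adjusted p of 0.251, 0.770 and 0.873 (limma, Benjamini-Hochberg).

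Of the 21 replication and maintenance genes, DNA2, a nuclease and helicase that also acts in the nucleus, was called. It stood at 5.70, 5.85 and 6.87 FPKM against 9.51, 9.31 and 9.39 FPKM, with no overlap and a log2 fold change of −0.61 ± 0.074 (SE, n = 3 per group, limma, Benjamini-Hochberg adjusted p = 0.000953). The polymerase POLG was at −0.11 (adjusted p = 0.135). Of 19 processing and tRNA modification genes none was called. TRMT10C, at 39.7, 40.8 and 39.8 FPKM against 47.6, 43.9 and 42.7 FPKM, and ELAC2, at 15.8, 15.8 and 15.9 FPKM against 14.7, 13.7 and 14.3 FPKM, each had no overlap, with small log2 fold changes of −0.16 and 0.15 in opposite directions (limma, Benjamini-Hochberg adjusted p = 0.0330 and 0.0171).

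No gene was called among the 16 tested RNA stability and decay genes, the 23 rRNA modification and ribosome assembly genes and the 6 tested regulators of biogenesis, whose median log2 fold changes were −0.03, −0.02 and −0.29. The 6 regulators all had an adjusted p under 0.05, as did 42.5% of all genes tested, but stayed under the size threshold, with NRF1 at −0.42, GABPB1 at −0.42, GABPA at −0.33, YY1 at −0.26, PPRC1 at −0.14 and ESRRA at 0.26 (limma, Benjamini-Hochberg adjusted p of 0.00178 to 0.0369). They are named after their values were seen. The other listed regulators, PPARGC1A, PPARGC1B, ESRRG and PERM1, had means under 1 FPKM and were not tested. Of these, PPARGC1B was higher in BrM3-shAKR1B10 with no overlap, at 1.04, 1.40 and 1.15 FPKM against 0.68, 0.82 and 0.70 FPKM. LRPPRC and SLIRP, which together stabilize mitochondrial mRNAs, were at 0.03 and −0.13 (limma, Benjamini-Hochberg adjusted p = 0.465 and 0.415), and the exoribonuclease PNPT1 was at −0.13 (adjusted p = 0.0362). Of the nuclear subunits of the complexes that the mitochondrial genes also encode, 35 of complex I, 11 of complex IV and 16 of ATP synthase were tested with none called, and their medians were −0.01, 0.11 and −0.09. Of 9 subunits of complex III, UQCR11 was called, at 5.21, 4.82 and 5.43 FPKM against 7.78, 6.46 and 8.23 FPKM, a log2 fold change of −0.53 (limma, Benjamini-Hochberg adjusted p = 0.00564). Its call was lost without BrM3-shAKR1B10 library 2, BrM3-shNC library 1 or BrM3-shNC library 3, at −0.48, −0.50 and −0.46, and it was also lost with a pseudocount of 1, at −0.46, with TPM scaling, at −0.49, and with scaling by nuclear reads, at −0.48.

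**Figure D2:**
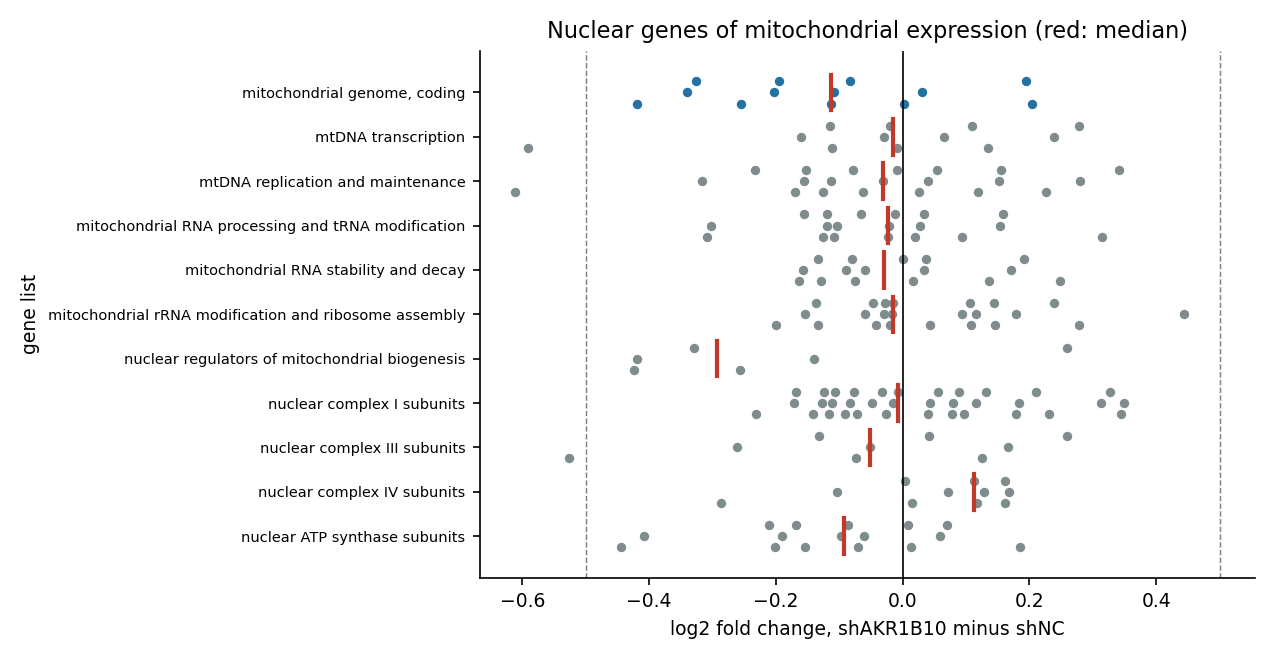
Log2 fold change of BrM3-shAKR1B10 against BrM3-shNC (x axis) for the 13 mitochondrial coding genes (blue) and the tested genes of 10 nuclear lists (grey), 1 row per list (y axis), with 1 point per gene, a red line at the median of each list and dashed lines at the threshold of 0.5. TFAM, DNA2 and UQCR11 are the points left of the dashed line at −0.59, −0.61 and −0.53, and no point lies right of the other dashed line.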

How the data were processed

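RNA-seq was performed on 3 BrM3-shAKR1B10 and 3 BrM3-shNC libraries. According to the supplementary methods and labels, the authors purified mRNA with poly-T beads, aligned reads with HISAT2 2.0.5 and counted them with featureCounts 1.5.0-p3. The authors deposited FPKM values per gene and library, not pooled. Reads were recovered from FPKM and gene length, and 100% of values were whole within 0.01. The deposited FPKM already carry a scaling between libraries, with denominators of 16911164 to 18350584 reads, above the reads on genes in the BrM3-shAKR1B10 libraries and below them in the BrM3-shNC libraries. Depth and limits of detection are given with the results.

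Tests covered genes whose mean FPKM reached 1, on the log2(FPKM + 0.1) scale, using limma 3.58.1 (eBayes with trend, Benjamini-Hochberg) in R 4.3.3. Fold changes on this scale understate those of low genes. Shares and ratios per library were compared by exact permutation tests in Python 3.11.15 with scipy 1.17.1. The scripts were tested on simulated data. The alternatives were pseudocounts, filters, scalings, eBayes without trend, limma's voom on recovered reads, a replicate block, other thresholds and each library left out. Every mitochondrial gene is named, tRNA genes with a mean of at least 10 reads with their values, together with AKR1B10, nuclear copies of at least 1 FPKM, called genes of the nuclear lists and 10 genes of mitochondrial RNA metabolism. The regulators of biogenesis fall outside this rule and were named after their values were seen. The rule for the members uses position only, but the members and lists were chosen with earlier results of these data known. Of the list symbols, PRORP, MRPP3 and FASTKD4 had no row under that name, which does not show that the genes were absent. Sequences are from GENCODE 29.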

Additional observations from a re-analysis of the deposited data

How the results depend on the processing

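MT-RNR2 was called higher in every setting but a log2 fold change threshold of 1. Against 2 mitochondrial genes called lower and 4 higher, the counts were 1 and 1 with no filter on low values, 6 and 6 by adjusted p alone, and 0 and 1 at a log2 fold change above 1. Voom on recovered reads called 1 lower and eBayes without trend called 2 higher. Leaving out 1 library gave 0 to 2 lower and 2 to 7 higher. Over all genes, 980 were called lower and 766 higher, against 532 and 290 at a mean FPKM of at least 5, 3044 and 2548 by adjusted p alone, and 205 and 168 at a log2 fold change above 1, with 497 higher at a pseudocount of 1. Of the nuclear list genes, 24 were lower and 16 higher by adjusted p alone, 0 were lower at a log2 fold change above 1, 1 was higher with TPM scaling, and leaving out 1 library gave 0 to 1 higher.

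As shares of summed FPKM, which weigh short genes more, the difference of BrM3-shAKR1B10 from BrM3-shNC was 0.599 percentage points for all mitochondrial genes, −1.13 for coding, 0.726 for ribosomal and 1.003 for tRNA genes. As a difference of mean log2 values, the ribosomal to coding ratio was 0.63 and the tRNA to coding ratio 0.42. Signs turned only for genes that were not called in the main comparison. With quantile normalization MT-ND3 was at −0.21 and MT-ND4 at 0.11 (limma, Benjamini-Hochberg adjusted p = 0.00707), and the low MT-TK was at 0.38 with a pseudocount of 1 and at 0.22 with voom. With 1 library left out, log2 fold changes ran from −0.085 to 0.11 for MT-CO3, −0.18 to 0.25 for MT-ND3, −1.69 to 1.72 for MT-TK, −0.0099 to 0.28 for MT-TL1, −0.12 to 1.001 for MT-TM, −0.084 to 0.30 for MT-TR, −0.39 to 0.23 for MT-TS2 and −0.53 to 0.10 for MT-TW. The cause of these changes was not tested. Of 167 summary values under alternatives, 134 stayed close to the main value and 33 moved. For counts the rule was a limit on the fold, and for shares and ratios the spread within groups, with the sign not checked. The small difference in the share of all mitochondrial genes changed sign without BrM3-shNC library 2 and still counted as close. Of 705 single-gene values, 623 kept their side of the threshold without a change of sign, 43 lost a call, 20 gained one and 19 changed sign. The 623 include MT-CO1, MT-CO2 and MT-CO3 with quantile normalization, which leaves these genes no difference and so no direction.

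The replicate numbers did not pair the libraries: deviations of same-numbered libraries correlated at −0.0155, 0.00388 and 0.00383, and 0 of 6 libraries correlated best with its own number. With the replicate number as a block, 2 mitochondrial genes were called lower and 6 higher, with MT-TP no longer called (limma, Benjamini-Hochberg adjusted p = 0.0921) and MT-TA, MT-TQ and MT-TS1 gained. MT-TA, with 0 to 2 reads in BrM3-shNC, passed the filter on low values only through BrM3-shAKR1B10, so its call carries no weight. Of the coding genes, MT-ND2 and MT-ATP6 then kept an adjusted p under 0.05, and MT-ND6 had 0.097 (limma, Benjamini-Hochberg). The block gave 967 and 719 calls over all genes and 3 and 0 among the nuclear list genes, and the shares and ratios were as without it. Depth limits the tRNA genes other than MT-TN, MT-TC, MT-TP and MT-TY, which had at most 157 reads in a library.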

Other observations

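Other noncoding RNA classes of the nucleus were measured in the same libraries at low depth, and are given beside 7.45% called lower and 5.83% called higher over all genes tested. Of 66 tested snRNA genes, with 253 to 339 reads per library in all, 2 were called lower (3.03%) and 4 higher (6.06%) in BrM3-shAKR1B10. Of 77 tested snoRNA genes, with 1049 to 1306 reads, 1 was called lower (1.3%) and 4 higher (5.19%). Of 76 tested misc_RNA genes, with 555 to 706 reads, 3 were called lower (3.95%) and 7 higher (9.21%), and of 122 tested miRNA genes, with 1240 to 1358 reads, 5 were called lower (4.1%) and 6 higher (4.92%). The 4 tested scaRNA genes had 11 to 27 reads per library in all. The 13 MTRNR2L genes, nuclear relatives of MT-RNR2, had means of at most 0.265 FPKM and none was tested.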
